A study of Homo sapiens with 8 samples.

Results

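The genes described here are 9 host genes of small nucleolar RNAs (snoRNAs): C6orf48, GAS5, SNHG1, SNHG5, SNHG6, SNHG7, SNHG8, SNHG12 and SNHG16. They were chosen by symbol, with no threshold on any value, and all 9 were found among the 58735 genes of the deposited table. Because they were proposed with measurements of these libraries in view, their levels and differences are given as a description and not as a test. The study measured mRNA of Caco-2, a colorectal carcinoma line that can resemble intestinal epithelium, in 3 untreated libraries (PBS) and in 3 libraries of cells given M2-exo, vesicles that the series design sets beside M0-exo and whose source in the labels is the monocytic line THP-1. Both groups were wild type per the labels and grew in the same kind of serum medium. The labels name no dose or time of treatment and do not say whether replicates came from separate cultures, so differences are set only against the spread between these libraries, which may be technical.

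A snoRNA host gene carries 1 or more snoRNAs inside its introns. The intron is cut out by splicing and trimmed to the snoRNA, which pairs with ribosomal or spliceosomal RNA. Box C/D snoRNAs guide ribose methylation and box H/ACA snoRNAs guide pseudouridylation. The spliced host RNA that is left over often encodes no long protein. Many such host RNAs begin with a 5′ terminal oligopyrimidine tract (TOP), a C followed by a run of C and T that they share with ribosomal protein mRNAs. Several are loaded on ribosomes and then removed by nonsense-mediated decay, so their steady level reflects both synthesis and decay. GAS5 was named for its rise in growth-arrested cells, where translation and with it decay of its RNA slow.

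The start of each gene is shown because the TOP tract is the feature that the family is known for. RefSeq sequences (build GRCh38.p14) matched 8 of the 9 genes by symbol, C6orf48 under its current symbol SNHG32; SNHG6 had no match. Each line gives 40 bases before and 30 bases from the RefSeq start, with the unbroken run of C and T that begins at the start in capitals.
C6orf48 (chr6:31834876-31834945, plus strand): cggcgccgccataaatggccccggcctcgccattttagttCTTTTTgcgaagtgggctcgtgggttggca
GAS5 (chr1:173869016-173869085, minus strand): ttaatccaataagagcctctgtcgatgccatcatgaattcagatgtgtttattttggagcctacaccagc
SNHG1 (chr11:62855856-62855925, minus strand): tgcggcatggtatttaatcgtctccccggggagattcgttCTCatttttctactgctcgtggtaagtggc
SNHG5 (chr6:85678704-85678773, minus strand): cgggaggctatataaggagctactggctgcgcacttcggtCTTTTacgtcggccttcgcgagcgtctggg
SNHG7 (chr9:136728155-136728224, minus strand): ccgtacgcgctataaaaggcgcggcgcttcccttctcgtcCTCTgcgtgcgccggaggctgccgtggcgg
SNHG8 (chr4:118278722-118278791, plus strand): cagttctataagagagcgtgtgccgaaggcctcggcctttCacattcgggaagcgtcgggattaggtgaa
SNHG12 (chr1:28581844-28581913, minus strand): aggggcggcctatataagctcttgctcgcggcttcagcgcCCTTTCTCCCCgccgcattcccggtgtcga
SNHG16 (chr17:76557724-76557793, plus strand): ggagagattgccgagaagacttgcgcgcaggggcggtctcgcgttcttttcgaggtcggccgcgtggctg

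A C stood at the RefSeq start in 6 of these 8 genes, against 14.7% of 35116 promoters in the same table. A C followed by at least 4 more bases that are each C or T stood at the start of C6orf48, SNHG5 and SNHG12, 3 of 8 genes, against 4.07% of promoters. The letters TATAA, searched on the gene's strand from 40 to 21 bases before the start, were found in SNHG5, SNHG7, SNHG8 and SNHG12, 4 of 8 genes, against 3.77% of promoters. SNHG5 and SNHG12 held both, as did 0.0883% of promoters. These searches were chosen with the sequences in view, and a match or its absence at a RefSeq start describes those letters only. Of these genes, RefSeq and the deposited table place the start at the same base only for SNHG7. The starts differ by 2 bases for SNHG16, 15 for SNHG5, 29 for SNHG1 and 53 for SNHG8. They differ by 163 bases for GAS5, 308 for C6orf48 and 1259 for SNHG12.

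In the table's GRCh38 coordinates, 24 snoRNA entries lay inside the 9 genes on the same strand. SNHG1 held 7, among them SNORD25 to SNORD28, C6orf48 held SNORD48 and SNORD52, SNHG5 held SNORD50B, SNHG6 held SNORD87, and SNHG16 held SNORD1A, SNORD1B and SNORD1C, all of the C/D class apart from 1 unnamed SNHG1 entry whose class is not given. SNHG7 held 4 entries, SNORA17A and SNORA17B among them, and SNHG8 held SNORA24, which are H/ACA snoRNAs, while SNHG12 held 5 entries of both classes. The table had no snoRNA entry inside GAS5. The snoRNAs themselves were hardly counted in these libraries: 22 of the 24 entries had no count in any of the 6 libraries, SNORD99 in SNHG12 had 6 counts in all and SNORD1B in SNHG16 had 7. Over the whole table, 992 snoRNA and scaRNA entries together took 0.00331% to 0.00468% of counts per library. The counted length of some host genes nearly fills their span, 3756 bases for SNHG1, so that snoRNA and host entries overlap, and the part of this overlap, of library type and of counting in the near absence of snoRNA counts was not tested. The values below are those of the host genes, and nothing can be read from them about mature snoRNAs.

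Library totals ranged from 15608937 to 18324599 counts. All 12 epithelial markers of the fixed list were tested, with summed levels of 10863.6 to 14304.7 CPM (counts scaled to a common library size with TMM factors) in untreated and 10407.4 to 13136.1 in treated libraries. The labels also call the cells stem cells. Of intestinal stem cell markers, LGR5 (53.1 to 79.8 CPM), ASCL2 (6.80 to 75.3), PROM1 (93.5 to 136) and SMOC2 (3.85 to 9.45) were present, whereas OLFM4 stayed below 0.3 CPM. Of pluripotent stem cell markers, only SOX2 (33.2 to 63.6) was clearly present. POU5F1 stayed below 0.3 CPM, LIN28A lay at 0 to 0.69 and NANOG had no count. These genes were chosen for the check after the data were seen. Of 15 macrophage and THP-1 markers, 5 had enough counts to test, and CD68, TYROBP and CD33 had no count in any library. Summed over all 15, levels were 16.9 to 21.5 CPM in untreated and 13.4 to 20.6 in treated libraries. CD14 was the highest of them, at 5.97 to 8.84 CPM. Untreated 1 and untreated 3 lay at opposite ends of the first principal component (50.1% of the variance, scores -55.97 and 43.2), with the treated libraries between -13.4 and 23.8. Untreated 1 also had the lowest share of mitochondrial counts, 4.16% against 7.01% to 8.11% elsewhere.

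All 9 host genes passed the filter on low counts. Together they took 0.0527% ± 0.00504 of counts in untreated and 0.0466% ± 0.00384 in treated cells (mean ± SD, n = 3 each). By library, the share was 0.0534%, 0.0474% and 0.0574% for untreated 1, 2, 3 and then 0.0488%, 0.0422% and 0.0488% for treated 1, 2, 3. The highest share was that of untreated 3 and the lowest that of treated 2, and the groups overlapped, since untreated 2 lay below treated 1 and treated 3.

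Compared per length, as deposited FPKM (fragments scaled by gene length and library size) averaged over 6 libraries, the order of levels was SNHG6 (41.2), SNHG8 (35.7), GAS5 (34.7), SNHG1 (22.4), C6orf48 (17.4), SNHG7 (13.6), SNHG16 (13.5), SNHG5 (10.7) and SNHG12 (1.52). This order rests on the table's gene lengths, such as 923 bases for SNHG8, 1247 for SNHG6 and 3631 for GAS5. Not scaled by length, GAS5 was highest, with group means of 133 and 121 CPM (untreated and treated), against 35.9 and 30.6 for SNHG8. How other transcript lengths would change the order was not tested. With the table's lengths, the order fell into steps with a clear gap at each end. SNHG6, SNHG8 and GAS5 formed the upper step, and the lowest GAS5 value, 29.9 FPKM, was above the highest SNHG1 value, 24.9. SNHG12 was lowest in every library, at 1.17 to 2.06 FPKM, against 8.29 or more for SNHG5. The neighbours in between overlapped in their ranges: SNHG6 ran from 26.3 to 59.5, SNHG8 from 29.2 to 45.3, SNHG7 from 7.38 to 24.6 and SNHG16 from 11.03 to 16.0 FPKM. C6orf48 had no fixed place, since its range of 5.53 to 54.2 FPKM spanned levels from below all SNHG5 values to above all GAS5 values.

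**Figure D1:**
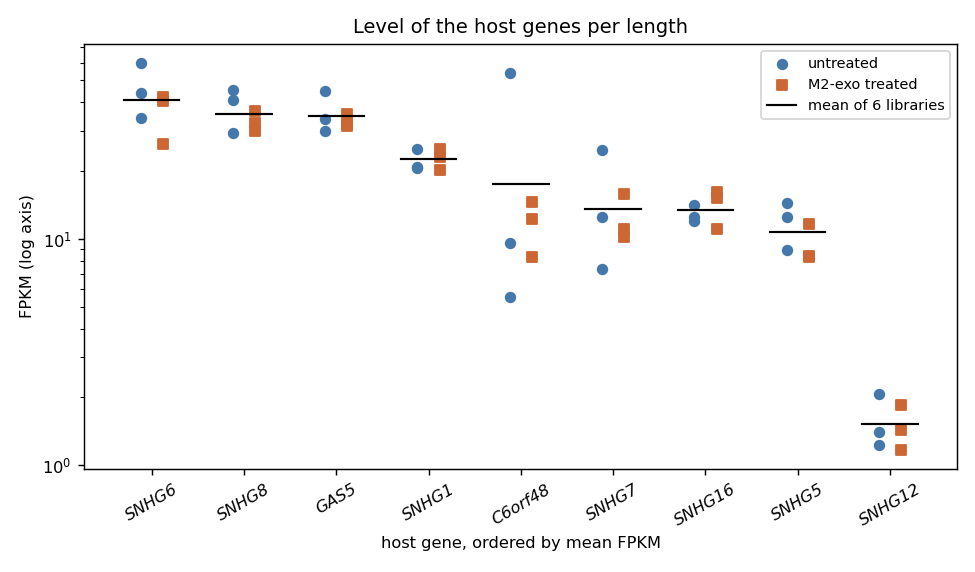
Deposited FPKM of the 9 host genes on a log axis, with 1 point per library (circles untreated, squares M2-exo treated) and a line at the mean of 6 libraries. SNHG6, SNHG8 and GAS5 lie highest and SNHG12 lowest, and a single untreated point lifts the mean of C6orf48 to 17.4.

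C6orf48 differed most between libraries. This gene (ENSG00000204387, chromosome 6, 31834608 to 31839766, plus strand) lies in the class III region of the major histocompatibility complex and hosts SNORD48 and SNORD52; the table types it as protein-coding. It stood at 10.1, 17.3 and 98.7 CPM in untreated 1, 2 and 3, from 159, 310 and 1755 counts. In treated 1, 2 and 3 it stood at 15.1, 22.0 and 26.4 CPM. Untreated 3 was thus far above the other 5 libraries, whereas the other untreated libraries lay near or below the treated ones, and the groups overlapped. The highest untreated value was 9.78 times the lowest, against 1.74 times among treated libraries.

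The untreated spread of C6orf48, an SD of 1.71 in log2 CPM, was reached by 18 of the 10890 genes with a mean of at least 5 CPM, C6orf48 included. The median gene had an SD of 0.27 in untreated and 0.15 in treated libraries. Untreated 3 exceeded untreated 1 by at least the 9.78 times of C6orf48 in 21 of these genes (0.193%), again with C6orf48 among them. Its genomic neighbours differed less, in a comparison chosen after its values were seen. Of the 20 other genes of at least 5 CPM within 250 kilobases, 18 were higher in untreated 3 than in untreated 1, with a median ratio of 1.61 and a range of 0.662 to 2.81, against a median of 0.956 over all such genes. The nearest of them on each side were the heat shock gene HSPA1B, with a ratio of 2.18, and the sialidase gene NEU1, with 1.08. A further entry on the same strand, AL671762.1, covers 99.1% of the C6orf48 span and had no count in any library. The settings of the counting are not named by the sources used here, and the part of this overlap in the values was not tested.

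SNHG7, which hosts H/ACA snoRNAs (ENSG00000233016, chromosome 9, 136721366 to 136728184, minus strand), had the next largest spread. It stood at 32.5, 54.4 and 108 CPM in untreated 1, 2 and 3, and its values were 44.8, 48.2 and 68.9 CPM in treated 1, 2 and 3. Untreated 3 was again the highest and untreated 1 the lowest of all 6 libraries, and the groups overlapped. The untreated SD of 0.87 in log2 CPM ranked at percentile 96.9 of the genes of at least 5 CPM. On the opposite strand FAM69B overlaps 39.4% of the SNHG7 span, and with the strand setting unknown, reads of both cannot be told apart there. FAM69B had 241, 599 and 574 counts in untreated and 514, 543 and 689 in treated libraries, so untreated 1 was low in both genes, but untreated 3 was not high in FAM69B as it was in SNHG7.

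SNHG12, with snoRNAs of both classes (ENSG00000197989, chromosome 1, 28578538 to 28583132, minus strand), had the fewest counts, 84 to 158 per library. It stood at 5.34, 5.99 and 8.89 CPM in untreated 1, 2 and 3, and its values were 6.13, 5.00 and 7.97 CPM in treated 1, 2 and 3. The highest value of each group was that of replicate 3, and the groups overlapped throughout their range.

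**Figure D2:**
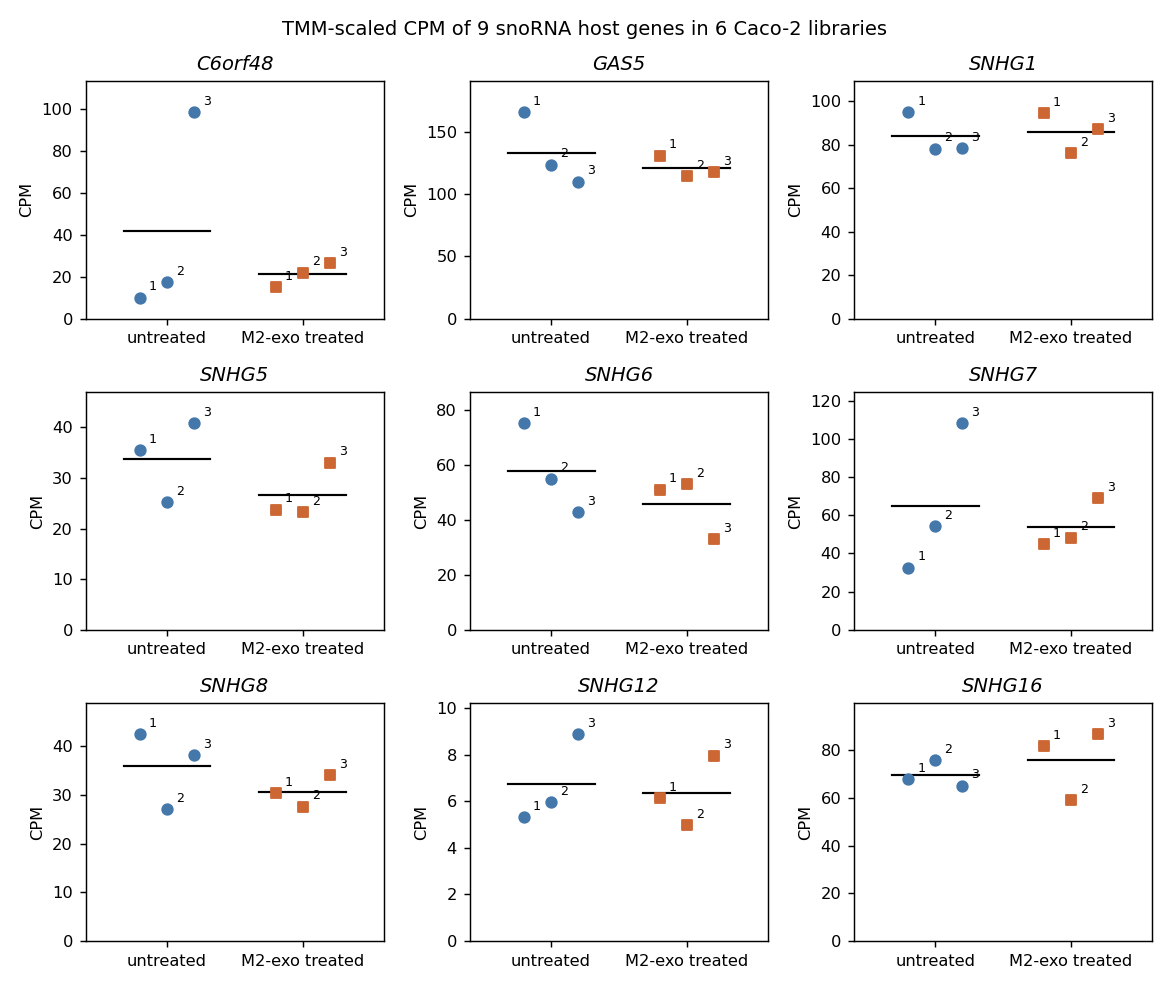
TMM-scaled CPM of each host gene, 1 panel per gene with its own axis from 0; circles are untreated and squares M2-exo treated libraries, digits give the replicate and lines the group means. Untreated and treated points overlap in every panel, and untreated 3 stands alone at 98.7 CPM for C6orf48.

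GAS5 and SNHG6, both hosts of C/D snoRNAs, had the reverse order in untreated cells. GAS5 (ENSG00000234741, chromosome 1, 173863900 to 173868882, minus strand) stood at 166, 124 and 109.996 CPM in untreated 1, 2 and 3, and its values were 131, 115 and 117 CPM in treated 1, 2 and 3. SNHG6 (ENSG00000245910, chromosome 8, 66921684 to 66926398, minus strand) stood at 75.3, 55.1 and 42.99 CPM without M2-exo (libraries 1, 2 and 3), and its values were 51.1, 53.1 and 33.2 CPM with it. Untreated 1, the lowest library for C6orf48 and SNHG7, was the highest for both of these. Both orders followed the first principal component of all genes tested, on which untreated 1 and 3 lay at opposite ends. Pearson r with it was 0.95 for SNHG7, 0.88 for C6orf48, 0.77 for SNHG12, -0.94 for GAS5 and -0.85 for SNHG6. For SNHG1 it was -0.64, and SNHG5, SNHG8 and SNHG16 lay between -0.20 and 0.22. The orders are thus not particular to these host genes. Each group mean was lower after M2-exo, 121 ± 8.63 against 133 ± 29.1 CPM for GAS5 and 45.8 ± 10.963 against 57.8 ± 16.3 CPM for SNHG6 (SD, n = 3 each), a gap smaller than the untreated SD in both. ZBTB37 overlaps GAS5 on the opposite strand over 16.1% of its span, and had 123 to 209 counts per library against 1955 to 2610 for GAS5.

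SNHG5 and SNHG8 shared a pattern in which untreated 1 and untreated 3 were both high. SNHG5 (ENSG00000203875, chromosome 6, 85660950 to 85678748, minus strand), the host of SNORD50B, stood at 35.5, 25.2 and 40.8 CPM in untreated 1, 2 and 3, and its values were 23.7, 23.3 and 33.1 CPM in treated 1, 2 and 3. SNHG8 (ENSG00000269893, chromosome 4, 118278709 to 118279823, plus strand), the host of SNORA24, stood at 42.4, 27.0 and 38.2 CPM without M2-exo (libraries 1, 2 and 3), and its values were 30.3, 27.6 and 34.1 CPM with it. Untreated 2 lay among the treated values in SNHG5 and below all of them in SNHG8, so the groups overlapped in both.

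SNHG1 and SNHG16 were the steadiest in untreated cells. SNHG1 (ENSG00000255717, chromosome 11, 62851988 to 62855914, minus strand), the host with the most snoRNA entries here, stood at 95.026, 78.2 and 78.3 CPM in untreated 1, 2 and 3, and its values were 94.4, 76.1 and 87.1 CPM in treated 1, 2 and 3. SNHG16 (ENSG00000163597, chromosome 17, 76557766 to 76565348, plus strand), the host of the SNORD1 group, stood at 67.8, 75.9 and 65.2 CPM without M2-exo (libraries 1, 2 and 3), and its values were 81.8, 59.3 and 86.7 CPM with it. Their untreated SDs in log2 CPM were 0.16 and 0.11, at percentiles 23.8 and 12.7 of the genes of at least 5 CPM. In SNHG16 the treated libraries varied more (SD 0.30, percentile 83.6), with treated 2 below and treated 1 and 3 above all untreated values.

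**Figure D3:**
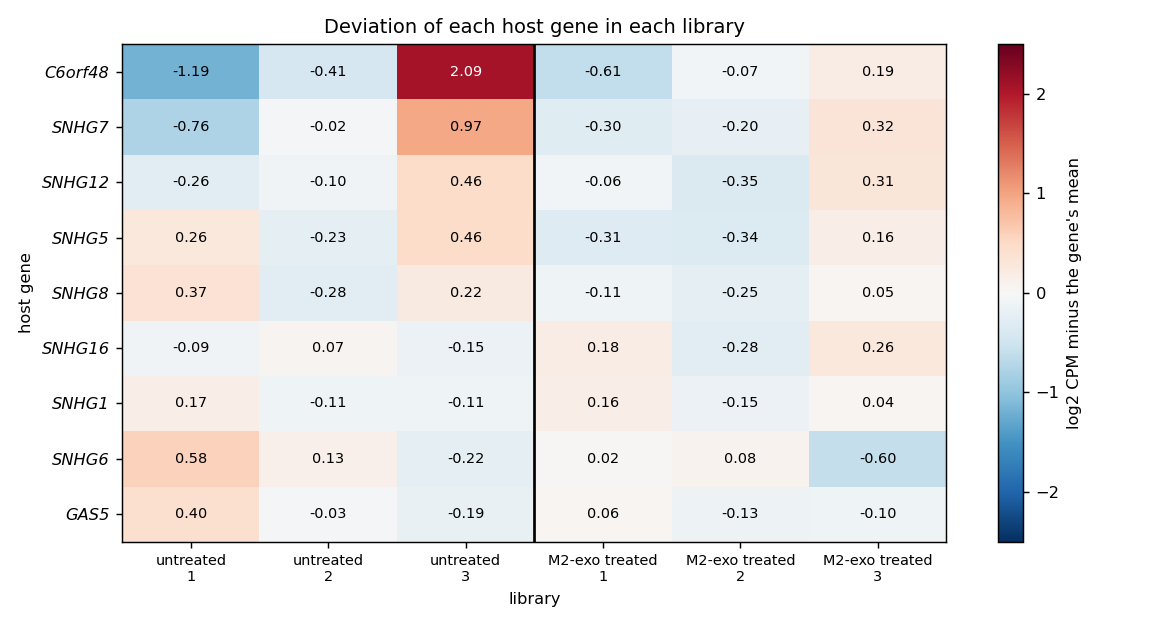
Log2 CPM of each host gene in each library minus the mean of that gene over 6 libraries (red above, blue below). C6orf48, SNHG7 and SNHG12 were low in untreated 1 and high in untreated 3, GAS5 and SNHG6 the reverse, and no gene separated the 3 untreated from the 3 treated libraries.

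**Figure D4:**
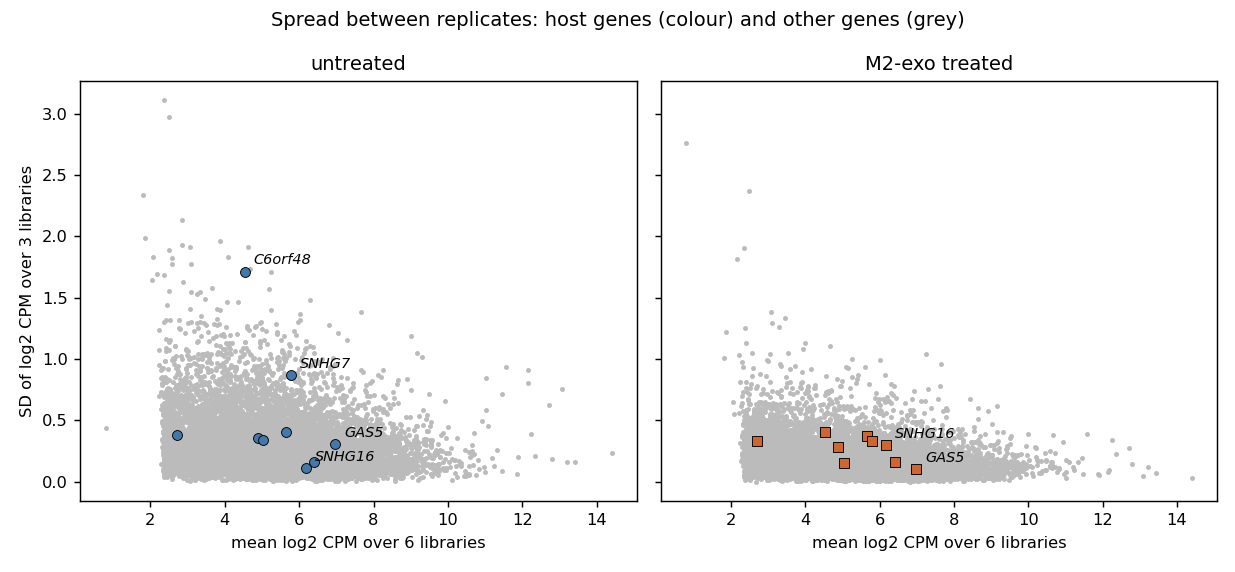
SD of log2 CPM over the 3 untreated (left) and 3 treated (right) libraries against mean log2 CPM, for genes of at least 5 CPM (grey) and the 9 host genes (colour). C6orf48, at an SD of 1.71, and SNHG7, at 0.87, lie high in the untreated panel and within the cloud in the treated one.

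The comparison of the series is M2-exo treated against untreated cells. The edgeR quasi-likelihood test called none of the 15084 genes at an adjusted p under 0.05 (0% called), so none of the 9 host genes was called either. At an unadjusted p under 0.05 it gave 111 of the 15084 genes, none of them a host gene. DESeq2 and limma-voom also called 0 genes, with 124 of 29413 and 104 of 15084 genes at an unadjusted p under 0.05. In each of these fits that is a smaller share of genes than 0.05, the share that evenly spread p-values would give. As a description, 7 of the 9 host genes had lower and 2 had higher fitted levels after M2-exo, with a median log2 fold change of -0.23, beside 52.9% below 0 and a median of -0.01 over all genes tested. In none of the 9 were the 3 treated and 3 untreated values free of overlap, as they were in 3.95% of all genes tested (2.3% with treated lower and 1.65% with treated higher). Without untreated 3, the library in which C6orf48 was high, 4 host genes lay below 0 and 5 above, and the median was 0.0042.

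C6orf48 had the largest log2 fold change, -0.99 (SE 0.70; 95% interval -2.57 to 0.59). It rested on untreated 3: without that library the value was 0.63, on the other side of 0. When no filter on low counts was applied, edgeR called 6 of 29414 genes, C6orf48 among them (log2 -0.97, adjusted p = 0.0402), while its adjusted p by edgeR with the filter was 0.9999 and no other alternative called it. Averaged on a log scale by limma-voom, the difference was only -0.34.

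The other log2 fold changes were smaller. SNHG5 (-0.34, SE 0.23), SNHG6 (-0.34, SE 0.25) and SNHG8 (-0.23, SE 0.20) were below 0 in the fit and under all 14 alternatives each, but their size rested on single libraries. Without untreated 1, SNHG6 stood at -0.093 and SNHG8 at -0.083, and without untreated 3 SNHG5 stood at -0.17 and SNHG8 at -0.16. Without treated 3, SNHG6 stood at -0.13. GAS5 (-0.14, SE 0.17) was above 0 only without untreated 1 (0.056). SNHG7 (-0.27, SE 0.38) was 0.32 without untreated 3, and SNHG12 (-0.08, SE 0.28) was 0.18 there and 0.065 without treated 2. SNHG16 (0.12, SE 0.18) was above 0 under all 14 alternatives, from 0.031 without treated 3 to 0.28 without treated 2, and SNHG1 (0.03, SE 0.15) under 13. The 95% interval of each of the 9 included 0. It stayed within a doubling or a halving, a log2 change of 1, in GAS5, SNHG1, SNHG5, SNHG6, SNHG8, SNHG12 and SNHG16, but not in C6orf48 or SNHG7. These intervals are not adjusted for the 9 genes and rest on the spread between libraries, which may be technical. They describe these libraries only.

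**Figure D5:**
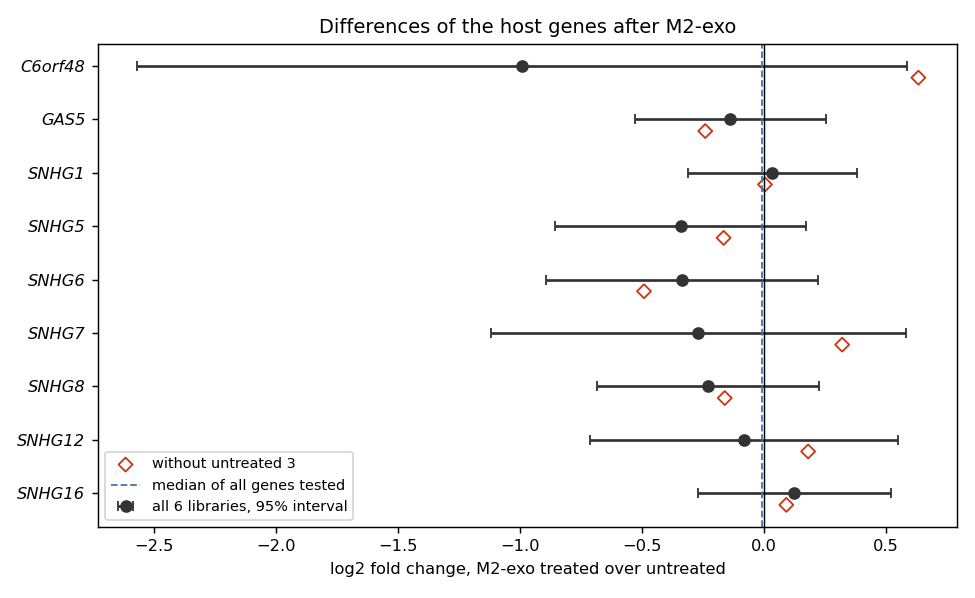
Log2 fold change of each host gene, M2-exo treated over untreated, with its 95% interval (dots and bars) and the value without untreated 3 (diamonds); the dashed line is the median of all genes tested. All intervals include 0, and the diamond of C6orf48, at 0.63, lies on the other side of 0 from its dot at -0.99.

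Other noncoding snoRNA host genes, from a list of 20 of which 19 were matched and 16 tested, showed no common direction: 8 were below and 8 above 0, with a median log2 fold change of -0.0022 and none called. ZFAS1, a host of C/D snoRNAs that begins with a TOP tract, had a mean of 68.9 ± 12.9 CPM without and 56.2 ± 5.58 with M2-exo (log2 -0.29, SE 0.18). EPB41L4A-AS1, host of an H/ACA snoRNA, stood at 30.5 ± 8.08 and 22.4 ± 3.52 CPM (log2 -0.44, SE 0.22), and SNHG3 at 29.9 ± 6.55 and 28.5 ± 0.651 CPM (-0.07, SE 0.20). On the other side were SNHG4 at 34.6 ± 3.81 and 41.5 ± 1.89 CPM (log2 0.26, SE 0.16), SNHG11 (0.23, SE 0.21) and SNHG17 (0.05, SE 0.18). SNHG4 was the 1 of the 16 tested genes whose groups did not overlap, beside 3.95% of all genes tested. Matched genes with too few counts to test went different ways. SNHG22 had 3, 12 and 6 counts in untreated and 0, 0 and 2 in treated libraries. SNHG9 had 0, 0 and 5 in untreated and 1, 4 and 5 in treated libraries, and SNHG25 had 2, 0 and 1 and then 1, 1 and 0. The most abundant was SNHG29, listed as LRRC75A-AS1, at 251 ± 21.0 and 245 ± 7.19 CPM, nearly level between groups and steady within them. SNHG17 ran from 76.3 CPM in untreated 1 to 119 in untreated 3, and DANCR, in the reverse order, from 116 to 78.7 CPM, so both orders seen in the 9 genes were also present here.

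Among coding genes that host snoRNAs, 17 of 21 ribosomal protein genes were below 0 and 4 above (median log2 -0.10), with RPL17 (-0.26) and RPS3 (-0.18) among the lowest and RPL21 (0.17), RPL23A (0.12) and RPL13 (0.02) highest; none was called. RPL3, which hosts C/D snoRNAs, was the 1 of them without overlap between groups, at 1522 ± 49.7 and 1356 ± 93.0 CPM. Treated values lay below all untreated ones in 2.3% of all genes tested. Of 14 other coding hosts, 9 were below and 5 above 0 (median -0.04), with TPT1 at -0.13, DKC1 at -0.11 and NOP56 at 0.15. The counts by list are not separate, since lists share genes. EEF1B2, EEF2, TPT1 and RACK1 are also in the TOP list that follows, and DKC1 and NOP56 in the list of snoRNP proteins below. Of 16 tested non-ribosomal TOP mRNAs, 10 were below and 6 above 0 (median -0.02), with the ribosomal fusion gene FAU at -0.20 and EEF1D at 0.21. A member of that list, the elongation factor gene EEF1G, had no count in any library although it is among the most active genes of dividing cells. The entry AP002990.1, with 40 to 100 counts per library, covers all but a fraction of its span on the same strand, and its part in that 0 was not tested.

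Genes that act on host RNAs or their snoRNAs were also not called. UPF1, LARP1, FBL and DKC1 are given below for their role and outside the fixed rule, as are SNHG29, SNHG17, DANCR and RPL3 above. The untested SNHG9, SNHG22 and SNHG25 above also lie outside that rule. Of 16 nonsense-mediated decay factors, 11 were below and 5 above 0 (median -0.02), with the junction proteins MAGOH at -0.36 and RBM8A at -0.23 lowest, SMG8 at 0.08 highest, and the helicase UPF1 at 212 ± 40.5 and 207 ± 18.6 CPM (-0.04). Of 7 transcripts often used as readouts of decay, 3 were below and 4 above 0 (median 0.01), with GADD45A at 32.3 ± 6.52 and 24.0 ± 3.35 CPM (-0.42, SE 0.20) and ATF3 at 0.11. Of 12 genes that control TOP translation, 6 lay on each side (median -0.01), with the repressor gene EIF4EBP1 at -0.20 and the TOP-binding protein LARP1 at 0.04. The groups of TSC1 (-0.14) and MTOR (-0.08) did not overlap, with treated lower, as in 2.3% of all genes tested. Of 18 snoRNP proteins and assembly factors, 10 were below and 8 above 0 (median -0.01). The groups of 2 did not overlap, both with treated higher, as in 1.65% of all genes tested. These were NOP56, a core protein of C/D particles, at 185 ± 6.47 and 204 ± 20.3 CPM (0.15, SE 0.13), and the assembly factor gene ZNHIT3 at 40.1 ± 2.94 and 44.8 ± 1.45 CPM (0.16, SE 0.15). Among the other core protein genes, FBL, the methyltransferase, stood at 148 ± 44.2 and 145 ± 20.1 CPM, and DKC1, the pseudouridine synthase, at 113 ± 17.1 and 105 ± 12.6 CPM, with overlap in both.

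By the rule fixed for likeness, the 5 genes outside the family that followed the mean standardised log2 CPM of the 9 genes most closely were ARHGAP19 (Pearson r = 0.987), DDHD2 (0.967), C2CD2 (0.961), LPIN2 (0.959) and GLOD4 (0.9498), out of 7812 genes of at least 20 CPM. With 6 libraries as points and so many genes searched, these coefficients describe the match only. The genes most like C6orf48 alone, chosen after its values were seen, were ARFRP1 (r = 0.998), USP5 (0.995) and DDAH2 (0.994). Their highest untreated value was 2.22, 1.69 and 2.21 times the lowest, against 9.78 times for C6orf48, so they matched its order but not its size. Of these, DDAH2 lies in the same part of chromosome 6, from 31727038 to 31730617.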

How the data were processed

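Caco-2 gene counts, deposited by the authors as whole numbers per gene, were analysed for 3 untreated and 3 M2-exo treated libraries. The submitters' processing notes list HISAT2, featureCounts, CASAVA and GRCh38; the version, strand setting and annotation release of each step were not given in the sources used here. FPKM values deposited by the authors equal each count divided by the table's gene length and by a constant per library (checked in untreated 1), and were used for levels between genes. The 6 columns of the gene tables that match no sample, and the miRNA table, were not used.

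Counts were fitted over all genes in edgeR 4.0.16 (R 4.3.3): filterByExpr by group (15084 genes), TMM, the 2-sided quasi-likelihood test and Benjamini-Hochberg adjustment at 0.05. SEs come from the fold change and its F statistic; log2 CPM used a prior count of 2. Alternatives used DESeq2 1.42.0, limma 3.58.1 and each library left out. On 5 simulated tables of 15084 genes for this comparison, changes were placed only in genes of at least 5 CPM. Counts were drawn independently, with no difference between libraries shared by many genes. There, changes of 1.5-fold were found by edgeR in 4.48% of cases, those of 2-fold in 54.3% and those of 4-fold in 99.1%. Of unchanged genes, 0.0632% were called.

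The 9 genes and the 11 gene lists (161 entries, 160 matched, 1 by another symbol) were chosen with earlier results of these data known. The named genes were the 9, up to 3 tested members of each list of at least 5 CPM with the largest change in each direction, of which the text gives a part (1 is not reported here), the 5 genes of most alike pattern, and snoRNA entries with at least 10 counts, of which there were none. The stem cell markers, the window around C6orf48, the genes most like C6orf48 and a few genes named in the text for their role were chosen after the values were seen.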

Additional observations from a re-analysis of the deposited data

How the results depend on the processing

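Alternatives were RLE size factors, total counts, no filter, DESeq2, limma-voom, log2(FPKM + 1), log2(FPKM + 0.1), a replicate block, and leaving out every library in turn. The number of genes called was 0 in each except 6 without the filter and 0 to 1 with 1 library left out (1 without treated 2, which was no host gene). The median log2 fold change of the 9 host genes ranged from -0.35 to 0.0042 with 1 library left out, the upper end without untreated 3. The difference in their summed share of counts stayed below 0, at -0.0088 to -0.0038 percent points with 1 library left out. The order of FPKM levels was the same by TMM-scaled counts per kilobase. Both use the same counts and gene lengths, so the order could hardly differ and this is no separate check. By gene, C6orf48 ranged from -1.44 to 0.63 over its alternatives; beside it only GAS5, SNHG1, SNHG7 and SNHG12 took both signs, each with a library left out. With the replicate number as a block, edgeR called 0 genes, and C6orf48 stood at -0.35. At an unadjusted p under 0.05, that fit gave 211 of 15084 genes instead of 111, with none of the 9 host genes among them. The smallest unadjusted edgeR p of a host gene was 0.054 with the block (SNHG6) and 0.167 without it (SNHG5). Same-numbered libraries correlated at 0.28, -0.065 and 0.48 in their deviations from group means, and differently numbered ones at -0.42 to 0.18. Numbers 1 and 3 thus matched more closely than any differently numbered libraries. Scores on the first principal component also rose with the replicate number in both groups. They were -55.97, 0.48 and 43.2 in untreated 1, 2 and 3, and -13.4, 1.89 and 23.8 in treated 1, 2 and 3. The levels of C6orf48 and SNHG7 rose in that order in both groups, and those of the other host genes did not. The labels do not say whether equal numbers mark a pair. The main fit therefore used no block, and a pairing was not tested. With 3 libraries a group, a typical gene's 95% interval extended 0.51 (median, log2) on either side of its fold change, which limits what could be detected.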
